A study of Caenorhabditis elegans with 68 samples.

Results

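The histone genes of Caenorhabditis elegans were described across hatched larvae of the first stage (L1) whose mothers had lived at 300 or at 50 mM NaCl. They were taken by name, as every gene called his followed by a number, which gave 72 of the 30470 lines of the expression table. Histones are the proteins around which DNA is wound. The core histones H2A, H2B, H3 and H4 form the nucleosome, and the linker histone H1 binds where DNA enters and leaves it. Replication-type core histone genes mostly lack introns, their transcription is tied to DNA synthesis in S phase, and in most animals their mRNAs end in a stem-loop without a poly(A) tail. The H3 variant H3.3 is made outside S phase as well, and is placed in chromatin independently of replication.

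RNA sequencing was done on larvae that had been synchronised at hatching without starvation. The 48 libraries used here form 14 groups in 4 sets. The sets were inferred here from the titles, which do not name an experiment. Ribosomal RNA was removed with RNase H, and RNA longer than 200 nucleotides was used, so transcripts without a poly(A) tail could enter the libraries. Levels are TPM (a transcript's share of the library, corrected for its length), which keep no sequencing depth, so the depth is unknown.

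Mothers of each of 7 kinds of larvae were kept at 300 or at 50 mM NaCl, which gives 7 NaCl comparisons. In set D, with 2 libraries per group, n4117 was strain MT12999, with the genotype mir-85(n4117) II., and WT was strain N2. In set E, with 3 libraries per group, both kinds of larvae came from strain MHE324. F1KO larvae were mir-85(n4117)/ mir-85(n4117), and F1het larvae carried n4117 over mIn1, a balancer chromosome marked with mIs14 and dpy-10(e128). The F1KO titles name heterozygous mothers, so set E mothers carried the balancer. In set F, with 4 libraries per group, gcp109 was strain MHE339, in which the allele gcp109 of mir-85 on chromosome II carries a 3p deletion. This set held no control strain among the libraries used. In set G, with 5 libraries per group, gcp100 was strain MHE310, in which the allele gcp100 of hrg-1 on chromosome X has the mir85 seed mutated, and N2 carried the same strain and genotype labels as WT of set D. The gene mir-85 encodes a microRNA, and gcp100 alters the site in hrg-1 that its seed would bind. The titles call the replicates biological, while separate cultures are named in no label. The p-values therefore cover the spread among these libraries, part of which may be technical.

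The libraries differed in their levels of early embryo and sperm transcripts, and what gave this difference was not tested. A list of 15 early embryo transcripts summed to between 30.8 and 5316 TPM at 300 mM, against 19.03 to 84.1 TPM at 50 mM. This sum exceeded 200 TPM in 6 libraries, all at 300 mM. They were gcp109 replicate 1 (203.7), N2 replicates 1, 3 and 5 (307, 5316 and 788) and gcp100 replicates 1 and 5 (3117 and 240.03), and the highest of the others held 115.7 TPM. A list of 35 major sperm protein genes ran from 3.6 to 4740 TPM at 300 mM, against 2.34 to 9.73 TPM at 50 mM. All 15 embryo genes and all 35 sperm genes were above 0 in at least 1 library. Replicates correlated at r = 0.803 or more in N2 at 300 mM, 0.863 or more in gcp100 at 300 mM, and 0.9645 or more in every other group. The counts of genes called, the summed levels and several single genes of sets F and G are therefore given with and without these 6 libraries.

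The 72 genes comprised 17 of type H2A, 17 of H2B, 15 of H3, 16 of H4, 5 of the H3.3 type, the linker gene his-24, and his-73, a gene of 141 bases that was left without a type. They lay at 17 loci of WBcel235 when genes less than 50 kb apart were joined, with 27 genes on chromosome V, 22 on IV, 14 on II, 4 on X, 3 on III and 2 on I. Of the 65 core genes, 62 were taken as replication-type, and 61 of these were annotated with a single exon. The exception, the H2A gene his-57, has spliced and unspliced transcripts and overlaps klp-12 on the opposite strand. The other 3 core genes lay side by side at V 9544659 to 9547607, each with 2 exons and an annotated 3′ untranslated region: his-35 (H2A), his-41 (H2B) and his-37 (H4).

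Near-identical copies limited what could be told apart. The values of 26 genes were identical in every library to those of at least 1 other, in 11 groups, so the 72 genes gave 57 distinct profiles. For example the H2A genes his-19, his-21, his-51 and his-53 shared 1 profile, as did his-30 and his-33 (H2A), his-29 and his-34 (H2B), his-28 and his-50 (H4) and his-9 and his-13 (H3). The H2B gene his-58 was listed at 0 in all 8 libraries of set D and all 12 of set E. It was above 0 in 4 of 8 libraries of set F (106 to 555 TPM) and in 13 of 20 of set G (21.1 to 2047 TPM). In set F these were gcp109 replicates 1 and 2 at both exposures. The same replicates stood apart in the ratio of summed replication-type H4 to H3. This ratio was 1.16, 1.15, 0.302 and 0.341 in gcp109 at 300 mM, against 1.37, 1.28, 0.37 and 0.325 at 50 mM. Levels of single copies are therefore uncertain, and sums over copies are given beside them.

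The 2 most abundant H3.3 genes and his-24 stood among the highest histone transcripts. Over the 48 libraries the linker gene his-24 averaged 710 TPM, the H3.3 genes his-71 and his-72 averaged 436 and 369 TPM, and the spliced H4 gene his-37 averaged 320 TPM. The highest mean of each type among replication-type genes was 605 TPM for his-66 (H2B), 515 TPM for his-55 (H3), 276 TPM for his-64 (H4) and 275 TPM for his-47 (H2A). The lowest means per type were 5.44 TPM for his-30 and his-33 (H2A), 5.25 TPM for his-42 (H3), 5.12 TPM for his-38 (H4) and 0.474 TPM for his-39 (H2B). A value of 14.9 TPM in 1 WT library at 50 mM supplied most of the his-39 mean, and this gene was above 0 in 21 of 48 libraries. The H3.3-type genes his-70 and his-69 averaged 0.573 and 0.464 TPM, and his-74 averaged 12.1 TPM. No histone gene was listed at 0 in all 48 libraries. All histone genes together made up between 0.588% and 4.95% of the TPM of a library at 300 mM, against 0.324% to 1.77% at 50 mM.

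Summed replication-type core histone transcripts had a higher mean at 300 than at 50 mM in each of the 7 NaCl comparisons, by between 1.197 and 9.09 times. In WT the sum of the 62 genes was 6739 and 4736 TPM at 300 mM, against 4194 and 1933 TPM at 50 mM. In n4117 it was 8436 and 5108 TPM at 300 mM, against 4902 and 2689 TPM at 50 mM. In gcp109 it was 6836, 4632, 3672 and 9508 TPM at 300 mM, against 1645, 1554, 1620 and 3623 TPM at 50 mM. Both set D genotypes and gcp109 had every 300 mM library above every 50 mM library. In bulk RNA a change in the number of cells of a type and a change in RNA per cell cannot be told apart.

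The spread was widest in set G and the levels at 50 mM were highest in set E. In N2 the sum was 21570, 9762, 48422, 5337 and 27138 TPM at 300 mM, against 2879, 2219, 3539, 1986 and 1723 TPM at 50 mM. In gcp100 it was 28609, 6394, 7523, 3221 and 6849 TPM at 300 mM, against 2414, 2025, 3344, 1848 and 1603 TPM at 50 mM. The N2 groups did not overlap, whereas in gcp100 replicate 4 at 300 mM lay below the highest library at 50 mM. In F1het the sum was 15636, 11767 and 12201 TPM at 300 mM, against 9624, 8834 and 5563 TPM at 50 mM, without overlap. In F1KO it was 12378, 10318 and 9967 TPM at 300 mM, against 13768, 6633 and 6886 TPM at 50 mM, with overlap. At 50 mM the 6 libraries of set E held 5563 to 13768 TPM, above all 18 libraries of the other sets (1554 to 4902 TPM). Set and strain cannot be told apart in that difference.

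The ratio of the mean sum at 300 to that at 50 mM was 1.87 in WT, 1.78 in n4117, 1.65 in F1het, 1.197 in F1KO, 2.92 in gcp109, 9.09 in N2 and 4.68 in gcp100. Without the 6 libraries rich in embryo transcripts it was 2.81 in gcp109, 3.06 in N2 and 2.54 in gcp100. The ratios of the 4 core types lay close together in WT, in gcp109 and, with all libraries, in N2. In N2 the ratio was 8.13 for H2A, 8.53 for H2B, 10.1 for H3 and 10.0 for H4. Without the embryo-rich libraries the N2 ratios lay further apart, at 3.17 for H2A, 3.04 for H2B, 3.50 for H3 and 2.41 for H4. In WT the ratio was 1.76 for H2A, 1.83 for H2B, 1.98 for H3 and 1.95 for H4. In gcp109 the ratios were 2.92 for H2A, 2.78 for H2B, 3.00 for H3 and 3.10 for H4. In set E the types differed more in their median log2 difference per gene. It was 0.67 for H2A, 0.65 for H2B, 0.86 for H3 and 0.48 for H4 in F1het. In F1KO it was 0.43 for H2A, 0.26 for H2B, 0.49 for H3 and 0.09 for H4.

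**Figure D1:**
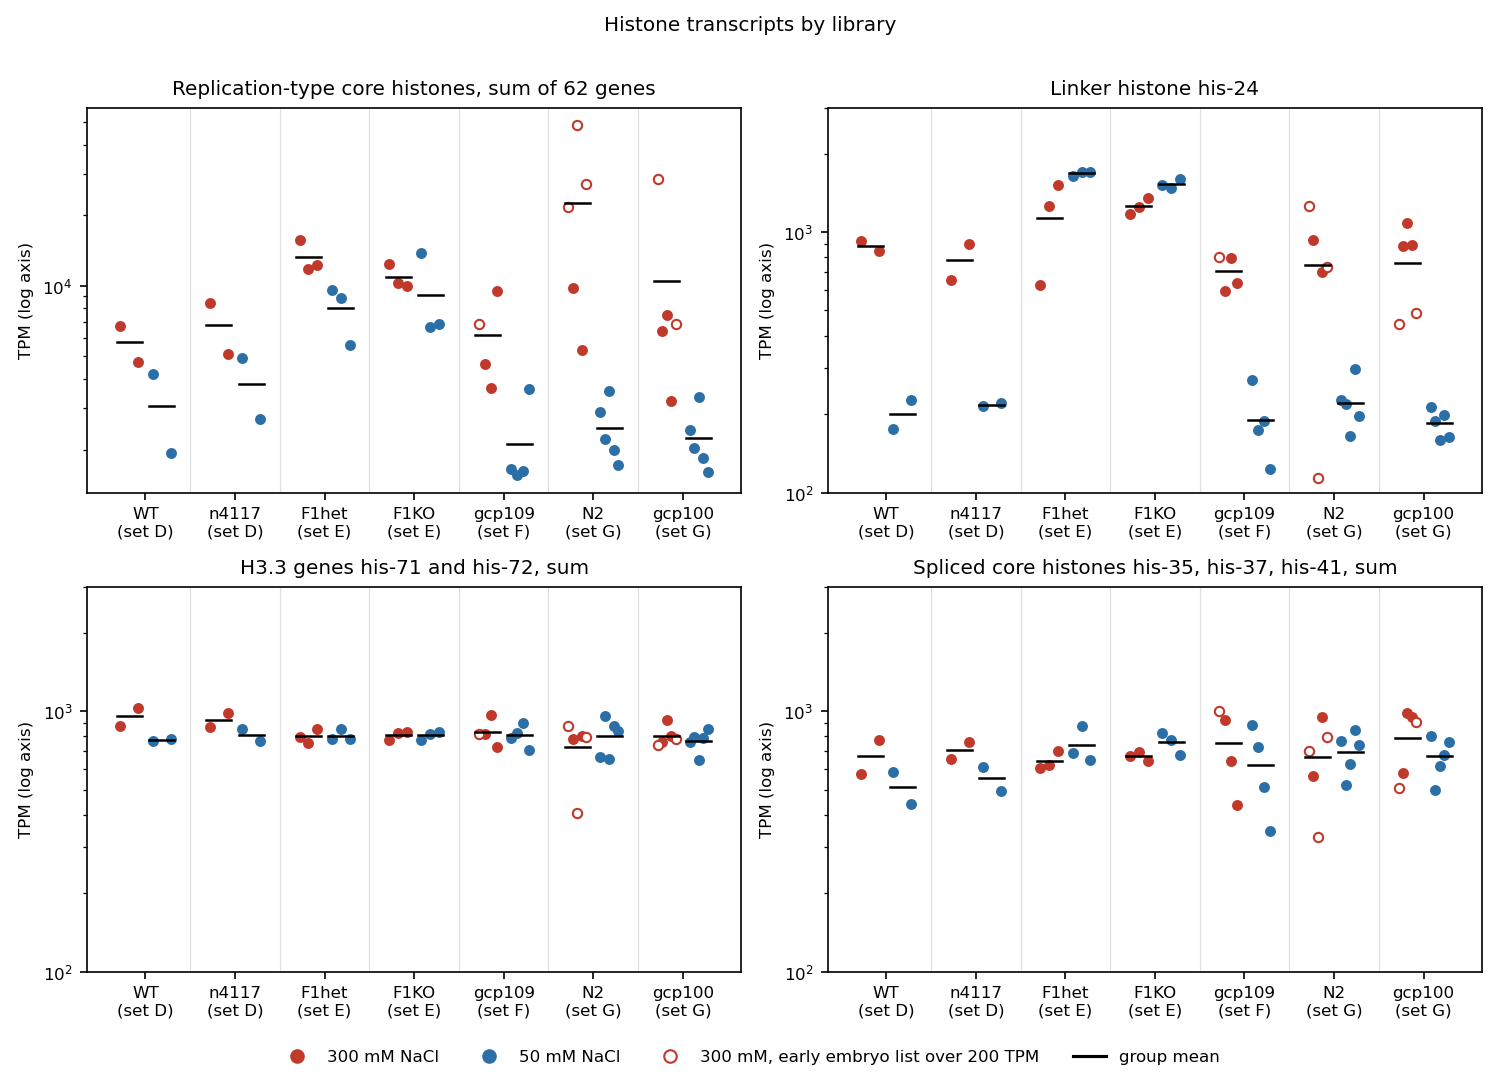
Levels in TPM (log axis) of the summed replication-type core genes, his-24, the sum of his-71 and his-72, and the sum of the 3 spliced core genes, with 1 point per library, 300 mM left of 50 mM, black bars at group means and open points for the 6 libraries over 200 TPM of early embryo transcripts. The replication-type sum reached 48422 TPM in N2 at 300 mM, and his-24 at 50 mM stood at 1471 to 1705 TPM in set E but at 123 to 298 TPM in the other sets.

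The linker histone gene his-24 (X 14490094 to 14491119, plus strand, 2 exons) encodes an H1 protein of the worm. Its mean was higher at 300 mM in the 5 comparisons of sets D, F and G but not in the 2 of set E. The noncoding genes M163.16 and M163.19 overlap it on the opposite strand, the libraries were strand-specific per the labels, but the sources used here do not say how counting treated strand. In n4117 its levels were 655 and 903 TPM at 300 mM, against 215 and 220 TPM at 50 mM. In WT they were 926 and 845 TPM at 300 mM, against 175 and 226 TPM at 50 mM. In gcp109 they were 799, 592, 796 and 638 TPM at 300 mM, against 272, 174, 188 and 123 TPM at 50 mM. No library at 300 mM in these groups fell among those at 50 mM.

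In set G a single N2 library lay on the other side. In gcp100 his-24 stood at 446, 886, 1078, 893 and 491 TPM at 300 mM, against 213, 188, 159, 198 and 164 TPM at 50 mM. In N2 it stood at 1260, 934, 114, 702 and 732 TPM at 300 mM, against 227, 219, 165, 298 and 197 TPM at 50 mM. The value of 114 TPM belonged to replicate 3, the library with the most embryo transcripts, and lay below every N2 library at 50 mM. In set E the order of the means was turned. In F1het the levels were 626, 1254 and 1515 TPM at 300 mM, against 1641, 1705 and 1698 TPM at 50 mM. In F1KO they were 1168, 1250 and 1351 TPM at 300 mM, against 1512, 1471 and 1594 TPM at 50 mM. In both set E pairs every library at 300 mM lay below every library at 50 mM. Every set E library at 50 mM thus held more his-24 than any library at 50 mM of the other sets, and all 6 set E libraries at 50 mM were above the F1KO libraries at 300 mM.

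By limma, his-24 rose at 300 mM in gcp109 (706 ± 107 against 189 ± 61.4 TPM, SD, n = 4 each, log2 difference 1.94, SE 0.229, adjusted p = 0.00594). It also rose in gcp100 (759 ± 277 against 184 ± 22.6 TPM, n = 5 each, log2 1.96, SE 0.439, adjusted p = 0.0438). The gcp109 call held without any single library (adjusted p at most 0.0299), whereas the gcp100 call held in 1 of 10 such fits, that without gcp100 at 300 mM replicate 1 (0.0485 to 0.124 over all 10). The gcp100 call also ended with a pseudocount of 0.1 (adjusted p = 0.0538) and with no filter on low values (0.08). Without the libraries rich in embryo transcripts the gcp100 difference was 2.37 (adjusted p = 1.586e-05). In N2 it did not pass with all libraries (748 ± 418 against 221 ± 49.2 TPM, log2 1.43, SE 0.439, adjusted p = 0.0687). It passed without N2 at 300 mM replicate 3 (log2 2.02, adjusted p = 0.000138), and without the 3 embryo-rich N2 libraries (log2 1.89, adjusted p = 0.000999). In n4117 (log2 1.82, SE 0.228, adjusted p = 0.0823), WT (log2 2.15, SE 0.228, adjusted p = 0.105), F1het (log2 -0.67, SE 0.252, adjusted p = 0.349) and F1KO (log2 -0.28, SE 0.252, adjusted p = 0.656) it did not pass. The difference between n4117 and WT in the response of his-24 was -0.33, that between F1KO and F1het 0.38, that between gcp100 and N2 0.53, and that between gcp109 and N2 0.51, with adjusted p of at least 0.873.

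The response of set E differed from that of the other sets for some of the histone genes. A fit over all 48 libraries compared the mean of the 2 responses of set E with the mean of the 5 responses of the other sets, in which strain N2 enters both as WT of set D and as N2 of set G. In this fit, added after the data were seen, the difference was negative and passed for 10 of 72 histone genes (7 distinct profiles), with 0.971% of 19558 genes called lower. It was positive and passed for 0 of 72, with 0 at an unadjusted p below 0.05 and 0.869% of genes called higher. At an unadjusted p below 0.05 by limma it was negative for 28 of 72, a count without a matching share of all genes. The difference was -2.33 for his-24 (SE 0.375, adjusted p = 0.000309), -2.90 for the H3 gene his-32 (SE 0.53, adjusted p = 0.00129) and -1.76 for the H3 gene his-25 (SE 0.389, adjusted p = 0.00877). These 3 passed without any single library. The other 7 genes were his-8 (H2B, -1.73), his-28 and his-50 (H4, -1.81), his-9 and his-13 (H3, -1.69) and his-29 and his-34 (H2B, -2.74), with adjusted p between 0.0234 and 0.0439. With 1 library left out the count was between 3 and 14. It was 3 without WT at 300 mM replicate 1, n4117 at 50 mM replicate 2, F1het at 300 mM replicate 3 or at 50 mM replicate 1, or F1KO at 300 mM replicate 2 or at 50 mM replicate 1. It was 4 without n4117 at 300 mM replicate 2, WT at 50 mM replicate 2, F1het at 300 mM replicate 2 or at 50 mM replicate 2, or F1KO at 300 mM replicate 3, and 6 without F1het or F1KO at 300 mM replicate 1. Without the embryo-rich libraries it was 13, all 10 among them, and his-24 then stood at -2.49. Set and strain cannot be told apart in this comparison.

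**Figure D2:**
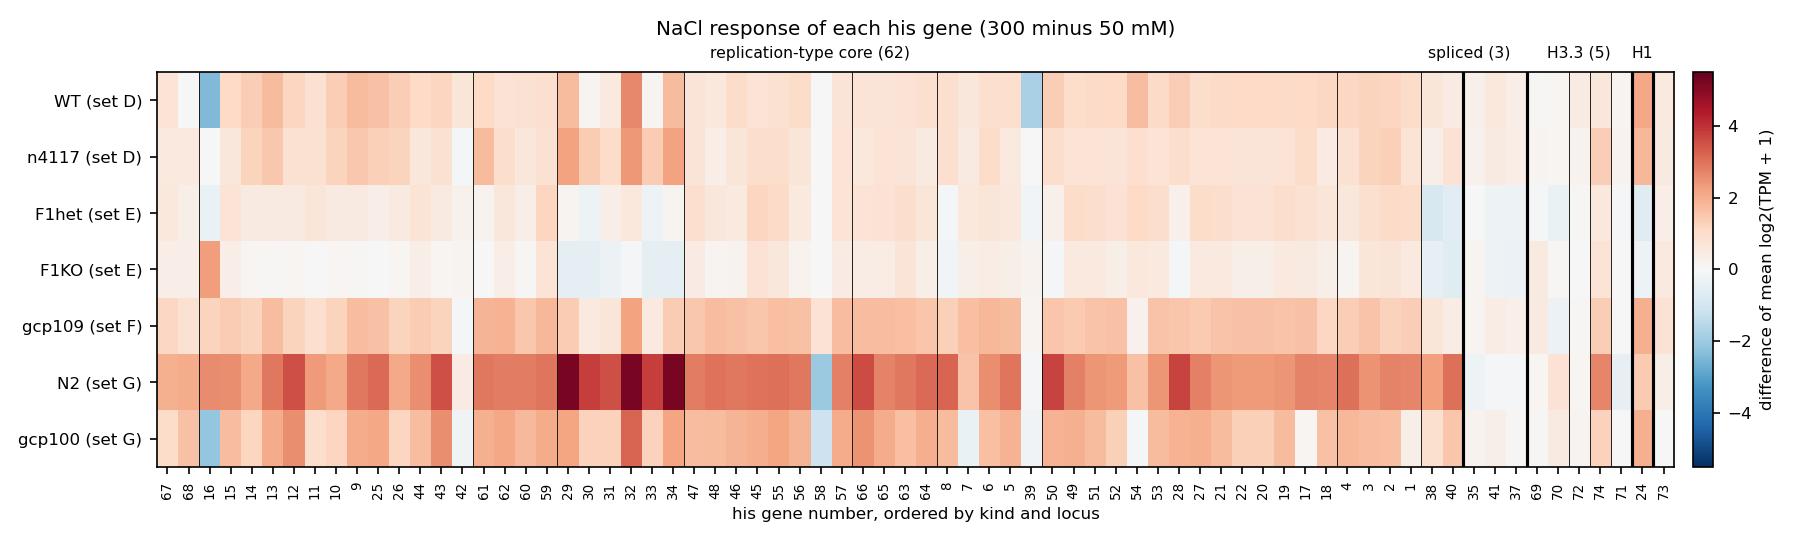
Difference of mean log2(TPM + 1) at 300 minus 50 mM for each of the 72 histone genes (columns, by kind and locus) in the 7 comparisons (rows), with red above 0 and blue below. The replication-type columns are mostly red, most deeply in N2, where his-32 reached 5.23, and the his-24 column is red in sets D, F and G and blue in set E (-0.67 in F1het and -0.28 in F1KO).

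A cluster of 6 replication-type genes from his-29 to his-34 (IV 8331044 to 8336340) had the largest ratio of all clusters in each comparison of sets D, F and G. It holds his-32 (H3), his-31 (H4), the H2A copies his-30 and his-33 and the H2B copies his-29 and his-34. At 50 mM its summed level was 156 to 624.8 TPM in set E, above the 3.12 to 15.2 TPM of the other sets. At 300 mM it was 254 to 353 TPM in set E and 13.2 to 1140 TPM in the other sets. The ratio of the mean at 300 to that at 50 mM was 5.15 in WT, 6.01 in n4117, 1.17 in F1het, 0.714 in F1KO, 4.54 in gcp109, 91.9 in N2 and 14.9 in gcp100. Without the embryo-rich libraries it was 4.41 in gcp109, 21.8 in N2 and 8.19 in gcp100. In sets D, F and G every 300 mM library lay above every 50 mM library of its genotype.

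Within that cluster his-32 (IV 8334305 to 8334715) was the most abundant gene. In N2 it stood at 405, 84.9, 144, 30.7 and 408 TPM at 300 mM, against 3.85, 3.36, 4.97, 1.88 and 1.45 TPM at 50 mM. In gcp100 it stood at 65.7, 51.98, 22.4, 7.53 and 45.1 TPM at 300 mM, against 2.65, 2.41, 3.04, 2.92 and 1.42 TPM at 50 mM. In gcp109 it stood at 17.1, 10.3, 15.7 and 24.8 TPM at 300 mM, against 1.69, 2.18, 3.18 and 4.45 TPM at 50 mM. No groups overlapped, and the gene rose by limma in N2 (log2 5.23, SE 0.603, adjusted p = 6.938e-05), gcp100 (3.21, SE 0.603, adjusted p = 0.0148) and gcp109 (2.20, SE 0.295, adjusted p = 0.0102). All 3 calls held without the embryo-rich libraries, with log2 differences of 3.75 in N2 (adjusted p = 0.00592), 2.68 in gcp100 (0.0214) and 2.18 in gcp109 (0.0392). The gcp100 call ended without gcp100 at 50 mM replicate 5 (adjusted p = 0.0591). In WT (19.99 and 16.4 against 4.52 and 0.68 TPM, log2 2.65) and n4117 (25.1 and 29.6 against 7.16 and 2.67 TPM, log2 2.37) the smallest adjusted p was 0.241.

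In set E his-32 was already abundant at 50 mM. In F1het it stood at 188, 169 and 176 TPM at 300 mM, against 173, 122 and 80.3 TPM at 50 mM. In F1KO it stood at 135, 129 and 135 TPM at 300 mM, against 258, 99.02 and 116 TPM at 50 mM. Both pairs of groups overlapped, with log2 differences of 0.57 and -0.11 that did not pass (adjusted p = 0.537 and 0.907).

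The neighbours of his-32 followed it at lower levels. The H2B profile of his-29 and his-34 was 150, 44.3, 109, 11.6 and 326 TPM in N2 at 300 mM, against 1.38, 1.82, 1.31, 0.7 and 0.74 TPM at 50 mM, and rose (log2 5.20, SE 0.888, adjusted p = 0.00244). It did not pass without the embryo-rich libraries (log2 3.48, adjusted p = 0.081). In gcp100 it was 40.5, 29.3, 0, 2.23 and 35.7 TPM at 300 mM, against 0.8, 1.47, 2.2, 1.9 and 0.85 TPM at 50 mM (log2 2.19, adjusted p = 0.307), with overlap. The H2A profile of his-30 and his-33 rose in N2 (37.4, 4.69, 28.9, 3.37 and 31.8 TPM at 300 mM, against 0.22 TPM or less at 50 mM, log2 3.82, adjusted p = 0.0018), also without the embryo-rich libraries (2.17, adjusted p = 0.00999). The N2 libraries at 300 mM, all above 1 TPM, were enough to bring this profile past the filter on low values in set G. The N2 call is therefore not independent of that filter. In set E this profile stood at 6.35 to 9.96 TPM at 300 mM and 5.85 to 24.4 TPM at 50 mM. In gcp109 it lay under the filter on low values and was not tested. On the log2(TPM + 1) scale such low levels understate a change.

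**Figure D3:**
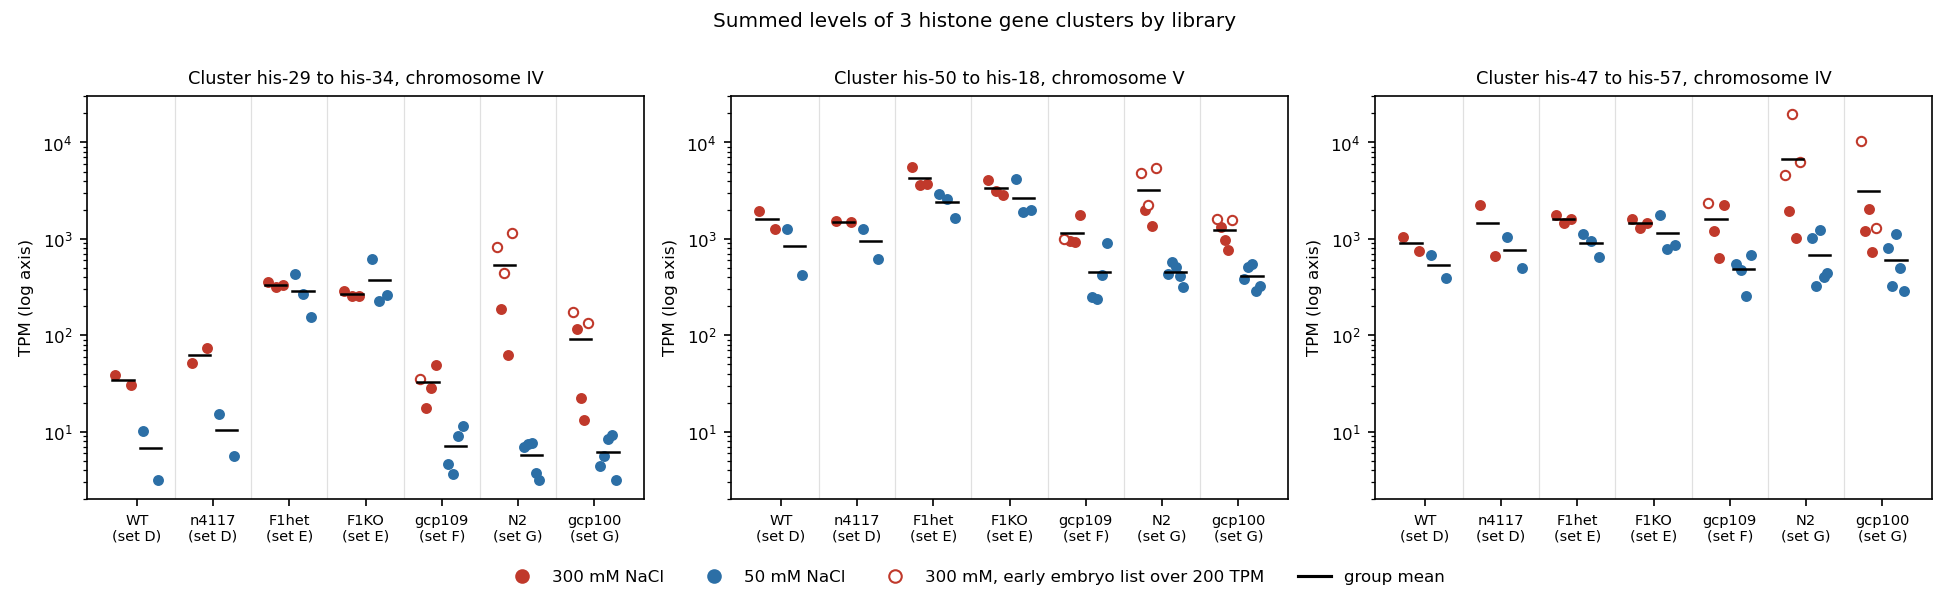
Summed TPM (shared log axis) of the clusters his-29 to his-34, his-50 to his-18 and his-47 to his-57, with 1 point per library, 300 mM left of 50 mM, black bars at group means and open points for the 6 embryo-rich libraries. At 50 mM the first cluster held 156 to 624.8 TPM in set E and 3.12 to 15.2 TPM elsewhere, and N2 at 300 mM replicate 3 held 19918 TPM of the third cluster.

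Clusters differed in which library was highest. In N2 at 300 mM the 8 genes from his-47 to his-57 (IV 11324056 to 11341703) summed to 4574, 1940.1, 19918, 1032 and 6262 TPM, against 1017, 323, 1233, 401 and 443 TPM at 50 mM. The 14 genes from his-50 to his-18 (V 8847393 to 8898539) summed to 4858, 2012, 2256, 1373 and 5454 TPM at 300 mM, against 429.6, 571, 512, 412 and 319 TPM at 50 mM. Replicate 3, the N2 library highest in embryo transcripts, was thus the highest for the first of these clusters and the third highest for the second. Groups overlapped in N2 for the first cluster and not for the second. The ratio of means in N2 without the embryo-rich libraries was 2.17 for the first and 3.77 for the second.

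By limma 44 of the 69 histone genes tested rose in N2 and 0 fell, with 2.13% of all genes called higher. All 44 were replication-type core genes, 10 of H2A, 12 of H2B, 13 of H3 and 9 of H4, and they gave 31 distinct profiles. The smallest p belonged to the H2A profile of his-19, his-21, his-51 and his-53, which stood at 210, 108, 120, 81.3 and 217 TPM at 300 mM, against 25.6, 32.2, 28.2, 23.02 and 16.1 TPM at 50 mM (log2 2.44, SE 0.281, adjusted p = 6.938e-05). It was followed by his-32 and then by the H4 gene his-18 (log2 2.70), the H2B genes his-20, his-22 and his-52 (2.35), the H2B gene his-4 (3.04), the H3 gene his-2 (2.74) and the H4 genes his-28 and his-50 (3.74). No library at 300 mM lay below the highest at 50 mM for any of these. For 37 of all 72 histone genes the N2 groups did not overlap, higher at 300 mM, against 5.16% of all genes tested. Without the 3 embryo-rich N2 libraries 20 rose (13 distinct profiles, 0.656% of all genes). Of these, 19 had risen with all libraries too, and his-24 was the other. Leaving out N2 at 300 mM replicate 5 gave 29.

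In gcp100 12 of 69 rose and 0 fell, with 0.262% of all genes called higher. They were the linker gene his-24, the H2A profile of his-19, his-21, his-51 and his-53, the H2A gene his-3, the H2B gene his-4, the H3 genes his-2, his-25 and his-32, and the H4 genes his-5 and his-18. The profile of his-19 stood at 77.5, 75.1, 101, 47.4 and 91.5 TPM at 300 mM, against 21.99, 29.1, 28.4, 14.4 and 20.03 TPM at 50 mM, without overlap (log2 1.74, SE 0.281, adjusted p = 0.00541). The log2 differences of the others ran from 1.61 for his-18 to 3.21 for his-32. Groups did not overlap, higher at 300 mM, for 20 of 72, against 1.92% of all genes tested. Without the embryo-rich libraries 16 rose (0.619% of all genes), 11 of the 12 among them. With a single library left out the count was 6, 7 and 6 when gcp100 at 300 mM lost replicate 1, 3 or 5, and 5, 5, 5 and 4 when gcp100 at 50 mM lost replicate 1, 2, 4 or 5. The comparisons of gcp100 and of gcp109 with N2 share the N2 libraries.

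In gcp109 5 of 65 rose and 0 fell, with 0.659% of all genes called higher. Beside his-24 and his-32 these were the H3 gene his-25 and the H3 copies his-9 and his-13. The level of his-25 (II 13824849 to 13825259) was 74.1, 59.1, 44.98 and 41.3 TPM at 300 mM, against 21.4, 17.98, 16.1 and 13.5 TPM at 50 mM, without overlap (log2 1.60, SE 0.208, adjusted p = 0.00911). The profile of his-9 and his-13 was 63.4, 44.5, 71.7 and 78.1 TPM at 300 mM, against 13.3, 11.3, 25.7 and 29.8 TPM at 50 mM (log2 1.72, SE 0.318, adjusted p = 0.0408). That call held in 1 of 8 fits with a library left out. Replicate numbers paired the gcp109 libraries, and with the replicate block 56 of 65 rose (42 distinct profiles, 6.19% of all genes), his-24 with an adjusted p of 0.00135. With the block and without gcp109 at 300 mM replicate 1, 46 rose (1.65% of all genes). Without the block and without that library 3 rose (0.286% of all genes). The unblocked count was also 3 without gcp109 at 50 mM replicate 1, 2 or 3 or at 300 mM replicate 2 or 4, 9 without 300 mM replicate 3 and 20 without 50 mM replicate 4. Groups did not overlap, higher at 300 mM, for 24 of 72, against 5.28% of all genes tested.

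In sets D and E no histone gene passed. In WT 0 of 67 were called, with 19 higher at an unadjusted p below 0.05 by limma and 0% of all genes called higher. In n4117 0 of 67 were called, with 22 at an unadjusted p below 0.05 and 0.02% of all genes called higher. Groups of 2 did not overlap for 49 of 72 in WT, against 27.4% of all genes tested, and for 43 of 72 in n4117, against 32.9%. In F1het 0 of 68 were called, with 28 higher and 2 lower at an unadjusted p below 0.05 and 0% of all genes called higher. Groups of 3 did not overlap for 40 of 72 in F1het, against 5.94% of all genes tested, and for 3 of 72 in F1KO, against 11.2%. In F1KO 0 of 68 were called, with 5 higher at an unadjusted p below 0.05 and 0.0194% of all genes called higher. The shares of all genes called use the adjusted p, so they are no measure for counts at an unadjusted p. Those counts take copies with the same values singly. With the replicate block, which the rule on pairing calls for in set E, 2 rose in F1het (0.129% of all genes), and 0 in F1KO. The 2 genes, named after their values were seen, were the H3 gene his-45 (log2 1.16, adjusted p = 0.0370) and the H3 gene his-17 (0.86, adjusted p = 0.0495).

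As a whole the histone genes lay above the median of all genes tested in each comparison. The median log2 difference of the 72, against that of all genes tested, was 0.93 against 0.09 in WT, 0.76 against 0.16 in n4117, 0.54 against -0.03 in F1het and 0.26 against 0.03 in F1KO. It was 1.42 against -0.02 in gcp109, 2.72 against -0.16 in N2 and 1.69 against -0.15 in gcp100. The difference was positive for 68 of 72 in WT, 69 in n4117, 58 in F1het, 54 in F1KO, 70 in gcp109, 66 in N2 and 64 in gcp100. Of all genes tested it was positive for 59.6% in WT, 66.003% in n4117, 45.1% in F1het, 54.8% in F1KO, 46.6% in gcp109, 40.9% in N2 and 37.98% in gcp100.

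The log2 differences of his-71, his-72 and the spliced core genes lay below the median of the replication-type genes in each of the 7 NaCl comparisons. The H3.3 genes his-71 (X 7981382 to 7982070) and his-72 (III 12367475 to 12369050) each have 3 exons, and a small nucleolar RNA gene, Y49E10.36, lies within his-72. Their summed level was 406 to 1029 TPM at 300 mM and 649 to 960.2 TPM at 50 mM. In gcp109 it was 814, 819.7, 965 and 729 TPM at 300 mM, against 791, 823, 899 and 711 TPM at 50 mM. The groups overlapped, while his-24 and the replication-type sum did not overlap in the same libraries. In N2 it was 874, 778, 406, 799.7 and 793 TPM at 300 mM, against 666, 960.2, 653, 880.1 and 837 TPM at 50 mM, with replicate 3 lowest. The ratio of means was 1.23 in WT, 1.14 in n4117, 0.993 in F1het, 1.00 in F1KO, 1.03 in gcp109, 0.914 in N2 and 1.04 in gcp100, and without the embryo-rich libraries 1.04 in gcp109, 0.987 in N2 and 1.08 in gcp100. By limma neither gene passed in any of the 7 comparisons, with log2 differences of -0.47 (N2) to 0.18 (n4117) for his-71 and 0.02 (F1KO) to 0.44 (WT) for his-72. Standard errors reached 0.289 for his-71 and 0.221 for his-72. In WT and in n4117, with 2 libraries each, both libraries at 300 mM held more of the sum than both at 50 mM.

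The minor H3.3-type gene his-74 (V 12659704 to 12660330) was low in most libraries. In N2 it stood at 9.46, 15.1, 181, 5.09 and 45.9 TPM at 300 mM, against 4.59, 2.23, 7.5, 1.31 and 1.26 TPM at 50 mM. In gcp100 it stood at 109, 10.8, 12.1, 3.76 and 0 TPM at 300 mM, against 4.37, 1.45, 7.29, 2.36 and 1.64 TPM at 50 mM. The highest values were those of N2 replicate 3 and gcp100 replicate 1, the libraries with 5316 and 3117 TPM of early embryo transcripts, whose part in the result was not tested. The value of 0 belonged to gcp100 replicate 5, which also exceeded 200 TPM of these transcripts. Log2 differences of his-74 ran from 0.56 in F1het to 2.68 in N2, and none passed without the block (adjusted p = 0.111 in N2, and 0.464 with a log2 difference of 1.38 without the embryo-rich libraries). The genes his-69 and his-70 reached at most 1.87 and 9.7 TPM in any library.

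The sum of the 3 spliced core genes at 300 mM was between 0.868 and 1.32 times that at 50 mM. Summed, his-35, his-41 and his-37 had ratios of means of 1.32 in WT, 1.28 in n4117, 0.868 in F1het, 0.884 in F1KO, 1.21 in gcp109, 0.955 in N2 and 1.17 in gcp100, and without the embryo-rich libraries 1.08 in gcp109, 1.08 in N2 and 1.24 in gcp100. In N2 the spliced H4 gene his-37 stood at 275, 294, 133, 448 and 474 TPM at 300 mM, against 338, 275, 266, 417 and 319 TPM at 50 mM (log2 -0.10, SE 0.275). The groups overlapped, and the replication-type H4 sum of the same libraries had a ratio of 10.0. Groups did not overlap, higher at 300 mM, for 2 of the 3 genes in WT and all 3 in n4117. For all genes tested the shares were 27.4% and 32.9%. In F1het 0 were higher and 1 lower without overlap, and in F1KO 1 was higher and 1 lower. None of the 3 genes passed in any comparison without the block. With the block in gcp109 his-37 (log2 0.29, adjusted p = 0.0479), his-41 (0.41, adjusted p = 0.0307) and his-74 (1.34, adjusted p = 0.00897) passed. With the block and without gcp109 at 300 mM replicate 1, his-37 (adjusted p = 0.116) and his-41 (0.0949) did not pass, and his-74 did (0.0415). The gene his-37 overlaps nstp-10 on the opposite strand, and his-41 overlaps C50F4.6 on the same strand.

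Between genotypes 0 histone genes passed in 7 of 8 comparisons, and 0 passed in any of the 4 differences of NaCl responses. Sums of the 62 replication-type genes at 300 mM averaged 6772 ± 2353 TPM in n4117 and 5737 ± 1417 TPM in WT (SD, n = 2 each). For n4117 minus WT, 0.0134% of all genes were called at 50 mM and 0.02% at 300 mM. For F1KO minus F1het, 0.0194% were called at each exposure. Here 19 of 72 histone genes were lower in F1KO without overlap at 300 mM, against 4.06% of all genes tested, with 1 lower at an unadjusted p below 0.05 by limma. The sum averaged 10888 ± 1303 TPM in F1KO and 13201 ± 2119 TPM in F1het (n = 3 each). For gcp100 minus N2, 0% were called at each exposure, with 29 histone genes lower at an unadjusted p below 0.05 at 300 mM and 0 at 50 mM. Its sum averaged 10519 ± 10247 TPM in gcp100 and 22446 ± 16964 TPM in N2 (n = 5 each). For the differences of NaCl responses 0% of all genes were called in each, with 15 histone genes lower at an unadjusted p below 0.05 for gcp100 minus N2, 14 lower for gcp109 minus N2, 2 higher for n4117 minus WT and 0 for F1KO minus F1het. The counts at an unadjusted p between genotypes have no matching share of all genes here, and take copies singly.

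The exception was gcp109 minus N2 at 300 mM, a comparison across sets in which set and genotype cannot be told apart. There 14 of 69 histone genes were lower (11 distinct profiles) and 0 higher, with 0.343% of all genes called lower. The H2A profile of his-30 and his-33 was 1.40, 0.40, 0.40 and 0.82 TPM in gcp109, against 37.4, 4.69, 28.9, 3.37 and 31.8 TPM in N2 (log2 -3.19, SE 0.589, adjusted p = 0.00604). The N2 libraries at 300 mM, all above 1 TPM, were enough to bring this profile past the filter on low values. Its call is therefore not independent of that filter. The other genes called lower were his-32 (H3, -3.08), his-28 and his-50 (H4, -2.50), his-18 (H4, -1.67), his-25 (H3, -1.98), his-31 (H4, -2.66), his-29 and his-34 (H2B, -3.52), his-4 (H2B, -1.75), his-40 (H3, -2.71), his-8 (H2B, -1.76) and his-2 (H3, -1.55). Of these, his-31 averaged 5.68 TPM and was above 0 in 39 libraries. Its call may depend on the filter in the same way, which was not tested. The median over the 72 was -1.42, against 0.16 over all genes tested. Without the embryo-rich libraries 0 passed by limma (0.0422% of all genes called lower), with 9 lower at an unadjusted p below 0.05. With 1 library left out the count was 8, 6 and 3 without gcp109 replicates 1, 2 and 3, and 7, 6 and 6 without N2 replicates 1, 3 and 5. At 50 mM 0 passed, 0 were at an unadjusted p below 0.05, and 0.0122% of all genes were called.

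**Figure D4:**
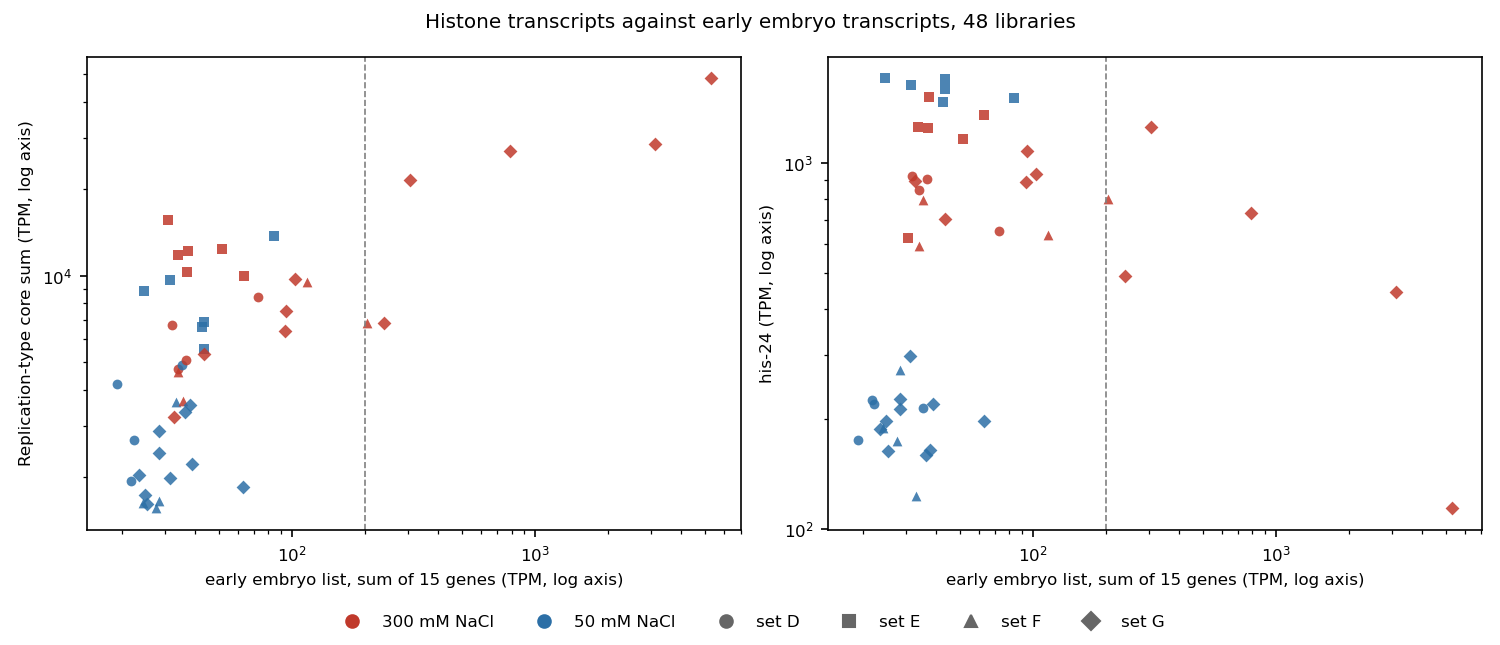
The replication-type core sum (left) and his-24 (right) in TPM against the sum of 15 early embryo transcripts in TPM (all log axes), with 1 point per library, red for 300 mM and blue for 50 mM, shapes for the sets and a dashed line at 200 TPM. The 6 libraries right of the line are all at 300 mM, and N2 replicate 3, at 5316 TPM of embryo transcripts, has the highest replication-type sum (48422 TPM) and the lowest his-24 level (114 TPM).

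Genes that act with histones in S phase were read from lists of 24 DNA replication genes, 14 histone chaperone genes and 9 histone mRNA processing genes in the table. Of the replication genes 14 of 24 rose in N2, among them rnr-1, a subunit of ribonucleotide reductase (log2 2.41, adjusted p = 0.00244), and 0 fell, with 2.13% of all genes called higher. In N2 without the embryo-rich libraries 7 of 24 rose, rnr-1 among them (1.51, adjusted p = 0.00658), with 0.656% of all genes called higher. In gcp109 1 rose, pcn-1, the sliding clamp PCNA (1.25, adjusted p = 0.0423), with 0.659% of all genes called higher, and without gcp109 at 300 mM replicate 1 it did not pass (1.28, adjusted p = 0.115). In gcp100 0 passed, the smallest adjusted p being 0.0896 for the helicase subunit mcm-2 (1.59), and without the embryo-rich libraries 4 rose (0.619% of all genes), mcm-2 among them (1.21, adjusted p = 0.0113). In sets D and E 0 passed. The summed level of the list was 785, 425, 2366, 425 and 1033 TPM in N2 at 300 mM, against 203, 226, 240.1, 237 and 210.3 TPM at 50 mM, with replicate 3 highest as for the replication-type histones. In gcp109 it was 392.1, 333, 275 and 453 TPM at 300 mM, against 182, 202, 196 and 248 TPM at 50 mM. Its ratio of means was 1.96 in WT, 1.92 in n4117, 1.55 in F1het, 1.29 in F1KO, 1.75 in gcp109, 4.51 in N2 and 2.63 in gcp100, and without the embryo-rich libraries 1.71 in gcp109, 1.90 in N2 and 1.49 in gcp100. Of the chaperone genes 3 of 14 rose in N2, led by chaf-2 (2.29, adjusted p = 0.0223), and 0 passed elsewhere. None of 13 rose in N2 without the embryo-rich libraries, chaf-2 with an adjusted p of 0.055 (log2 1.10) and 4 at an unadjusted p below 0.05 by limma, and 1 rose in gcp100, lin-53 (0.68, adjusted p = 0.0278). Of the mRNA processing genes 1 of 9 rose in N2, cdl-1, the stem-loop binding protein (2.27, adjusted p = 0.0111), and 0 passed elsewhere. The summed level of this list in N2 at 300 mM was 170, 114, 533, 119 and 243 TPM, again with replicate 3 highest. By limma 0 rose in N2 without the embryo-rich libraries, cdl-1 with an adjusted p of 0.115 (log2 1.05), the only 1 of the 9 at an unadjusted p below 0.05. The shares of all genes called in N2, given for the replication genes, apply to both lists.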

How the data were processed

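Levels are TPM as deposited by the authors, 1 column per library, whose sums ran from 953862 to 999109. Builds WBcel235 and ce11 and the tool bedtools are named in the submitters' processing notes, and the sources used here give no aligner, no counter and no strand setting. TPM keep no depth, so no counting interval can be given. Of 68 samples, 48 were used and 20 were not analysed here, and 0 columns matched no sample. In set G 20693 of 30467 lines stood beside a displaced gene name, and their values were moved back by line order, which brought the correlation with the other libraries to 0.973, against 0.586 as deposited. No histone line was moved (0).

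The test was limma (version 3.58.1, on R 4.3.3, two-sided, with a trend) applied to log2(TPM + 1), in 1 fit per set, 1 over sets F and G for gcp109 against N2, and 1 over all libraries for set E against the others. A gene was kept when the number of libraries with at least 1 TPM reached the size of the smallest group, and p-values were adjusted by Benjamini-Hochberg over all of them, with a threshold of 0.05. Fold changes on this scale understate the change of low genes. Counts at an unadjusted p below 0.05 are given without the share of all genes at that level. The fits were tested on simulated data. Histone types came from a hand-written list, and positions from the WBcel235 annotation. Named were the chosen markers, the H3.3-type genes, the highest and lowest gene of each core type, and up to 12 genes per comparison past the threshold. Further genes are named where a count is spelled out. The members and lists were chosen with earlier results of these data known. The set E comparison and the fits without embryo-rich libraries were added after the data were seen.

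Replicate numbers were taken to pair libraries where, with 3 or more pairs, every correlation of deviations from the group means exceeded 0.1. This held for the NaCl comparisons of F1het (lowest 0.106), F1KO (0.174) and gcp109 (0.493) and for gcp100 against N2 at 50 mM (0.26). The alternatives were a pseudocount of 0.1, no filter on low values, median-of-ratios rescaling, a replicate block, each library left out in turn and set G as deposited.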

Additional observations from a re-analysis of the deposited data

Results flagged for a closer look

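Of 54 checks, each of 1 level or sum in 1 group of 4 or 5 libraries, 4 found a library far from the others. Chance gives about 1 in 20 checks, but these share libraries and are not independent. The replication-type sum of gcp109 at 50 mM replicate 4 was 3623 TPM, with the other 3 libraries at 1554 to 1645 TPM. That of gcp100 at 300 mM replicate 1 was 28609 TPM, with the other 4 at 3221 to 7523 TPM. The level of his-74 was 181 TPM in N2 at 300 mM replicate 3 and 109 TPM in gcp100 at 300 mM replicate 1. The last 3 values belong to the libraries with 5316 and 3117 TPM of early embryo transcripts, whose part in them was not tested.

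The NaCl response of set E differed by limma from the mean of the 5 responses of the other sets for 10 of 72 histone genes. Of 19558 genes tested, 0.971% were called lower. Strain N2 enters that mean as WT of set D and as N2 of set G. The fit was added after the data were seen, and with 1 library left out the count ran from 3 to 14. Some of the genes share 1 profile. On the log2 scale the difference was -2.90 for his-32, -2.74 for his-29 and his-34, -2.33 for his-24, -1.81 for his-28 and his-50, -1.76 for his-25, -1.73 for his-8 and -1.685 for his-9 and his-13.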

How the results depend on the processing

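No histone gene past the threshold turned direction in any alternative run. Of all single-gene values, 10 of 852 turned sign under another setting and 39 of 1728 with a library left out. None of those that turned had passed in either fit. Of the log2 ratios of summed levels, which had no test, 4 of 30 and 10 of 144 turned sign. Examples are his-37 in N2 (0.19 without the embryo-rich libraries, -0.10 with all), the response of his-24 in gcp109 minus N2 (-0.02 without them, 0.51 with all) and, with a library left out, the spliced sum in N2 (-0.28 to 0.10). Counts of histone genes that passed moved by more than 1.5 times in 13 fits with another setting (86 did not) and in 36 with a library left out (176 did not). Where no share of all genes stands beside a count, it cannot be read whether the histone genes or all genes moved. With no filter on low values 3 passed in gcp109 and 6 in gcp100. With rescaling 3 passed in gcp109. With a pseudocount of 0.1 the count for gcp109 minus N2 at 300 mM was 8, and with set G as deposited it was 29. With the replicate block 56 passed in gcp109 (6.19% of all genes called higher) and 2 in F1het (0.129%), where the numbers pair the libraries. Where they share only a number, the replicate block gave 7 in gcp100 and 8 for gcp109 minus N2 at 300 mM, and in neither did every library correlate best with its own number. The block moved no other count by over 1.5 times. Without the embryo-rich libraries, in fits on fewer libraries, 3 passed in gcp109 (0.286% of all genes called higher) and 20 in N2 (0.656%). With the block as well, 46 passed in gcp109 (1.65%). For gcp109 minus N2 at 300 mM 0 passed without those libraries (0.0422% called lower). The log2 ratio of the replication-type sum in N2 was 1.60 without them, against 2.84 with all. With 1 library left out the counts ran from 0 to 1 in F1KO (1 without F1KO at 50 mM replicate 1), 3 to 20 in gcp109, 29 to 51 in N2, 4 to 18 in gcp100, 3 to 21 for gcp109 minus N2 at 300 mM and 3 to 14 for set E against the others. Apart from the smaller number of libraries, the cause was not tested. Rescaling moved the median log2 difference of all genes in n4117 to -0.01, against 0.16 as deposited, and by less than 0.1 in the other NaCl comparisons. Depth is unknown, copies may share reads, and set and strain cannot be told apart across sets.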

Other observations

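Histone genes outside the his names, a list of 12 that holds the linker genes hil-1 to hil-8, the H2A.Z gene htz-1, the centromeric H3 genes hcp-3 and cpar-1, and htas-1, had summed levels that split by set as his-24 did. At 50 mM the sum was 1721 to 1970.1 TPM in the 6 libraries of set E and 315 to 891 TPM in the 18 of the other sets. The ratio of the mean at 300 to that at 50 mM was 2.26 in WT, 2.16 in n4117, 0.707 in F1het, 0.802 in F1KO, 1.93 in gcp109, 2.01 in N2 and 2.03 in gcp100, and without the 6 embryo-rich libraries 1.74 in gcp109, 1.68 in N2 and 2.18 in gcp100. By limma hil-2, a linker histone gene, rose in gcp109 (log2 1.53, adjusted p = 0.0408), N2 (1.43, adjusted p = 0.0142) and gcp100 (1.59, adjusted p = 0.0215). It also rose without the embryo-rich libraries in N2 (1.57, adjusted p = 0.0156) and gcp100 (1.94, adjusted p = 0.00299), and in gcp109 it did not pass (1.504, adjusted p = 0.121). In N2 3 of 10 tested rose and 1 fell, with 2.13% of all genes called higher and 2.17% lower, and in sets D and E 0 passed. When the embryo-rich libraries were left out, hil-2 alone of the 10 rose in N2 and 0 fell, with 0.656% of all genes called higher and 0.563% lower.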
